A study of Saccharomyces cerevisiae with 22 samples.

Results

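Budding yeast that had first been held in mild heat were compared with yeast that met hydrogen peroxide directly. The comparison uses 8 of the 22 Affymetrix arrays of the study: 4 from the heat-primed series and 4 from the naive series, chosen by their labels and matched at 15, 30, 45 and 90 min in peroxide. All cells were of the strain labelled 4741 and were grown in rich medium (YPD) at 30 °C to mid-log phase. Naive cells received 0.66 mM H2O2. Heat-primed cells spent 45 min in heat shock, given as 40 °C on the heat arrays, and then received the same 0.66 mM H2O2. Arrays of untreated cells (2), of heat alone (30 and 45 min) and of cells returned to rich medium after heat (15 and 45 min) give reference levels. Cells of another peroxide series (4 arrays, called osmotic-primed) spent 45 min in osmotic stress, given as 0.8 M KCl on the osmotic arrays. They then received the same 0.66 mM H2O2, and their arrays shared the fits. Each group has 1 array per time, no separate cultures are stated, and the temperature during peroxide is not given, so a p-value here speaks of the spread among these arrays alone.

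Yeast answer heat mainly through the heat shock factor Hsf1, which drives chaperone genes, and answer many stresses through Msn2 and Msn4, which drive a general stress programme while genes for ribosome assembly are turned down. Peroxide is sensed through Yap1, which drives peroxidases, thioredoxins and glutathione enzymes. Cells that have met a mild stress often survive a later, different stress better, which is called acquired resistance or priming.

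The 22 arrays had medians of 10.16 to 10.22 (log2) over 5449 genes, and at least 97.4% of genes on each array exceeded the background level, 4.62. Between the untreated arrays the SD over genes was 0.142, and 3 genes were at least 2-fold apart. One array stood apart in ribosomal RNA: the mean 25S signal was 7.10 on the heat-primed array of 30 min and 5.54 to 5.97 on the other 3 of that series. On the arrays outside that series it ran from 5.13 to 6.54, and the untreated pair gave 6.38 and 5.45. Results are therefore also given without the heat-primed array of 30 min. As a check of cell type, the a-specific genes STE2 (12.46 to 13.33) and MFA2 (12.70 to 13.23) were high on all 8 arrays, while the alpha-factor gene MF(ALPHA)1 lay at 3.46 to 4.41, below background. Of the other genes of alpha cells, STE3 (6.48 to 7.50) and SAG1 (8.33 to 8.82) were above background. The strain markers URA3, LEU2 and MET17 stayed between 3.46 and 4.76, while HIS3 lay at 11.62 to 13.04. In bulk RNA, a lower level per cell and fewer cells with a transcript cannot be told apart.

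Over the 4 times, heat-primed cells had less mRNA of HSP30, of the sorting factors BTN2 and CUR1 and of the disaggregase HSP78. They had more of the phosphate transporter PHO89 and of some ribosome assembly factors, such as DBP7. With limma, 84 genes were higher and 98 lower at an adjusted p under 0.05, which is 3.34% of the 5449 genes (1.54% higher and 1.8% lower). All 182 had the same sign at all 4 times, as had 1906 genes (35.0%) of all those measured. The spread in this test holds both noise and any drift of the difference with time, so it favours genes with a steady difference. Named genes were chosen for such differences on these same arrays. That their series do not overlap is therefore a description and no separate support, and the share of all genes without overlap was not counted. The count rested on single arrays: it was 1 without the heat-primed array of 30 min, 1 without that of 45 min, 1 and 2 without the naive arrays of 30 and 45 min, and 721 and 829 without the heat-primed and naive arrays of 90 min. With only the 8 arrays of the 2 series, 3 genes passed, all lower, and 1497 genes had an unadjusted p under 0.05. Quantile normalization gave 255 higher and 179 lower, so the split between directions depends on the scaling.

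HSP30, a plasma membrane protein that restrains the proton pump, had the largest difference among the lower genes. Its log2 level was 12.09, 12.41, 9.63 and 10.89 in naive cells at 15, 30, 45 and 90 min, and 8.67, 8.94, 7.94 and 7.64 in heat-primed cells. The groups did not overlap, and the primed array of 90 min was near the untreated arrays at 7.33 and 7.34. The difference was -2.96 ± 0.35 (SE, 4 arrays per group), or 7.78-fold lower, with an adjusted p of 0.0118. During heat alone the same gene stood at 14.19 and 13.59, and it was at 7.05 after 15 min back in rich medium.

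BTN2 and CUR1 encode related factors that sort misfolded proteins to deposit sites. BTN2 was at 10.55, 10.57, 11.15 and 10.06 in naive cells and at 8.19, 8.62, 8.76 and 8.70 in primed cells, below the untreated arrays (9.35 and 9.44) at every time. The difference was -2.01 ± 0.24, with an adjusted p of 0.0118. CUR1 ran at 8.72, 9.12, 9.28 and 8.99 in naive cells and at 6.35, 7.03, 7.58 and 7.14 in primed cells, against 8.10 and 8.11 untreated. Its difference was -2.0 ± 0.21 (adjusted p = 0.0105), and neither gene's groups overlapped. CUR1 also passed with the 8 arrays alone, at an adjusted p of 0.0174, and over all its alternatives the adjusted p ran from 0.00124 to 0.206. Both genes were already below untreated cells 15 min after heat in rich medium, at 8.24 for BTN2 and 6.49 for CUR1.

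HSP78, the disaggregase of mitochondria, gave 10.18, 11.38, 11.17 and 9.65 in naive cells and 8.98, 9.08, 8.95 and 8.21 in primed cells. SIS1, an essential Hsp40 partner of Hsp70, gave 12.23, 12.73, 12.67 and 12.44 in naive cells and 11.29, 10.71, 10.91 and 10.47 in primed cells. MBF1, a transcriptional coactivator, gave 13.34, 13.58, 13.65 and 13.56 in naive cells and 12.14, 12.22, 12.39 and 12.35 in primed cells. None of the 3 pairs of series overlapped, and SIS1 and MBF1 in primed cells lay below both untreated arrays (11.80 and 11.71 for SIS1, 12.84 and 12.87 for MBF1). The differences were -1.79 ± 0.20 for HSP78, -1.67 ± 0.17 for SIS1 and -1.25 ± 0.13 for MBF1, each with an adjusted p of 0.0105.

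**Figure D1:**
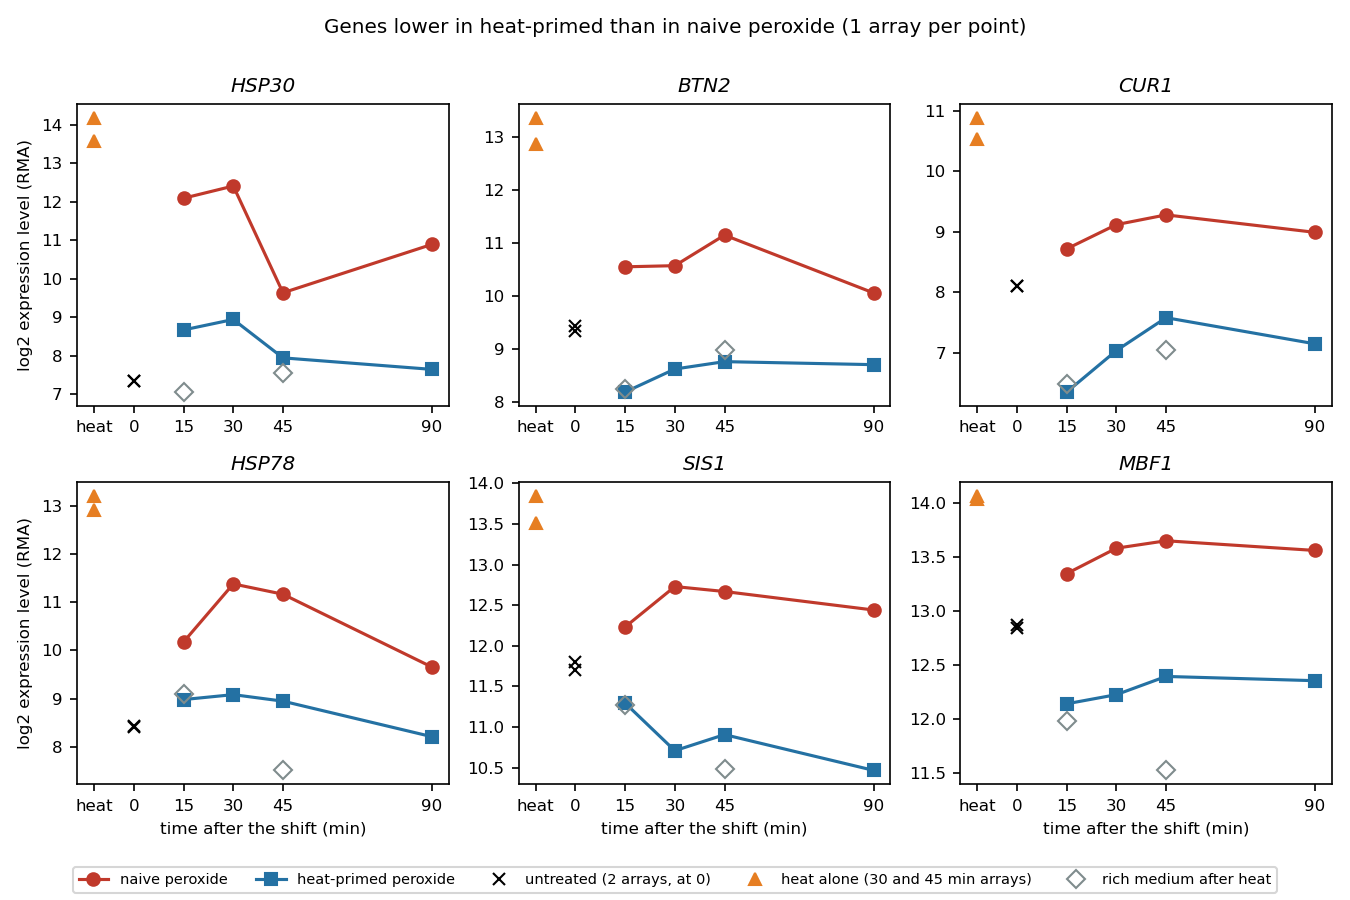
Log2 expression level (vertical) of 6 genes against time in min after the shift (horizontal), 1 array per point, in naive (red circles) and heat-primed (blue squares) peroxide, with untreated cells, heat alone and rich medium after heat as separate symbols. In each panel the 4 heat-primed points lie below the 4 naive points; for HSP30 the highest primed value is 8.94 and the lowest naive value 9.63.

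The plot of these lower genes shows the heat arrays above both peroxide series in all 6 panels, and the primed cells below untreated levels for BTN2, CUR1, SIS1 and MBF1. IMD2, an IMP dehydrogenase of guanine nucleotide synthesis, did not follow that pattern. It was 8.76 and 8.66 in heat alone, 9.90 and 10.05 in untreated cells, 10.23, 10.15, 10.30 and 10.42 in naive cells and 8.54, 8.43, 8.84 and 9.22 in primed cells. It was thus lower in heat and stayed lower in primed peroxide and in rich medium after heat (8.57 and 8.63). The difference was -1.52 ± 0.12, with the smallest adjusted p of the comparison among the named genes (0.003). It passed in 22 of 24 alternatives, all 12 that leave out an array included, with adjusted p between 0.00124 and 0.16. Its probe set can bind near-identical copies of the gene, so the signal is uncertain as to the copy.

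The other lower genes under the naming rule were YER053C-A (-2.06 ± 0.35), TPO4, a polyamine exporter (-1.87 ± 0.25), GLC3, the glycogen branching enzyme (-1.60 ± 0.35), XKS1, xylulokinase (-1.42 ± 0.31), ARN2, a siderophore transporter (-1.37 ± 0.26), and GGA1, a Golgi clathrin adaptor (-1.32 ± 0.27). Their adjusted p ran from 0.0216 for TPO4 to 0.0487 for GLC3. TPO4 separated the series, with 10.08 as the lowest naive and 9.10 as the highest primed value. GLC3 did not: naive cells had 10.67, 12.30, 11.32 and 9.91 and primed cells 8.21, 10.45, 10.08 and 9.04.

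Among genes that were higher, PHO89, a sodium and phosphate cotransporter, led. Naive cells had 9.59, 8.99, 9.54 and 9.97 and primed cells 13.07, 12.48, 11.92 and 10.80, a gap that narrowed with time without overlap. The difference was 2.54 ± 0.45, or 5.83-fold, with an adjusted p of 0.0397. PHO89 passed in 4 of the 12 limma fits that leave out 1 array, and its adjusted p was 0.0987 with the 2 series alone. PHO89 was at 7.27 and 7.13 in heat alone and at 13.77 in rich medium 15 min after heat, against 10.17 and 10.45 in untreated cells. It was the only one of 28 phosphate genes to pass, near the share of all genes (3.34%). PHO5, of the same list, just missed the threshold (0.999, adjusted p = 0.051). PHO84, the main high-affinity phosphate transporter, differed by 0.18 ± 0.09 (adjusted p = 0.2).

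GSC2, a stress-induced subunit of glucan synthase in the cell wall, stayed at 10.17, 10.06, 10.16 and 10.14 in naive cells and was at 11.96, 11.02, 11.22 and 10.90 in primed cells. Naive cells were thus flat at a level slightly below untreated (10.43 and 10.42), and all primed arrays were above it. The difference was 1.14 ± 0.17 (adjusted p = 0.0346), and in rich medium after heat GSC2 was at 12.25 and 11.83. OPT2, an oligopeptide transporter gene, was at 7.26, 6.94, 7.01 and 7.09 in naive cells and at 8.54, 7.89, 7.41 and 8.03 in primed cells, a difference of 0.89 ± 0.14 (adjusted p = 0.0346). DAL1, allantoinase, was at 5.87, 5.74, 6.37 and 6.63 in naive and 8.23, 7.56, 7.23 and 7.19 in primed cells (1.40 ± 0.27, adjusted p = 0.0442). The series did not overlap for any of these genes.

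The remaining higher genes were IZH1, a membrane protein of zinc homeostasis (1.29 ± 0.28), COA2, an assembly factor of cytochrome oxidase (1.17 ± 0.25), DBP7, a helicase of 60S assembly (1.02 ± 0.15), JJJ3, a J-domain protein (0.98 ± 0.20), GFD2 (0.95 ± 0.21), RRN11, a subunit of the RNA polymerase I core factor (0.89 ± 0.15), YDR042C (0.89 ± 0.10) and UBC11, a ubiquitin-conjugating enzyme (0.89 ± 0.19). Their adjusted p ran from 0.0105 for YDR042C to 0.0483 for IZH1, GFD2 and UBC11. Across the 24 named genes, the sign was the same under every alternative, while the number of alternatives passed ran from 9 for COA2 to 22 for IMD2. Of the higher genes, GSC2, DBP7 and RRN11 each passed in 4 of the 12 fits that leave out 1 array, and YDR042C in 8.

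**Figure D2:**
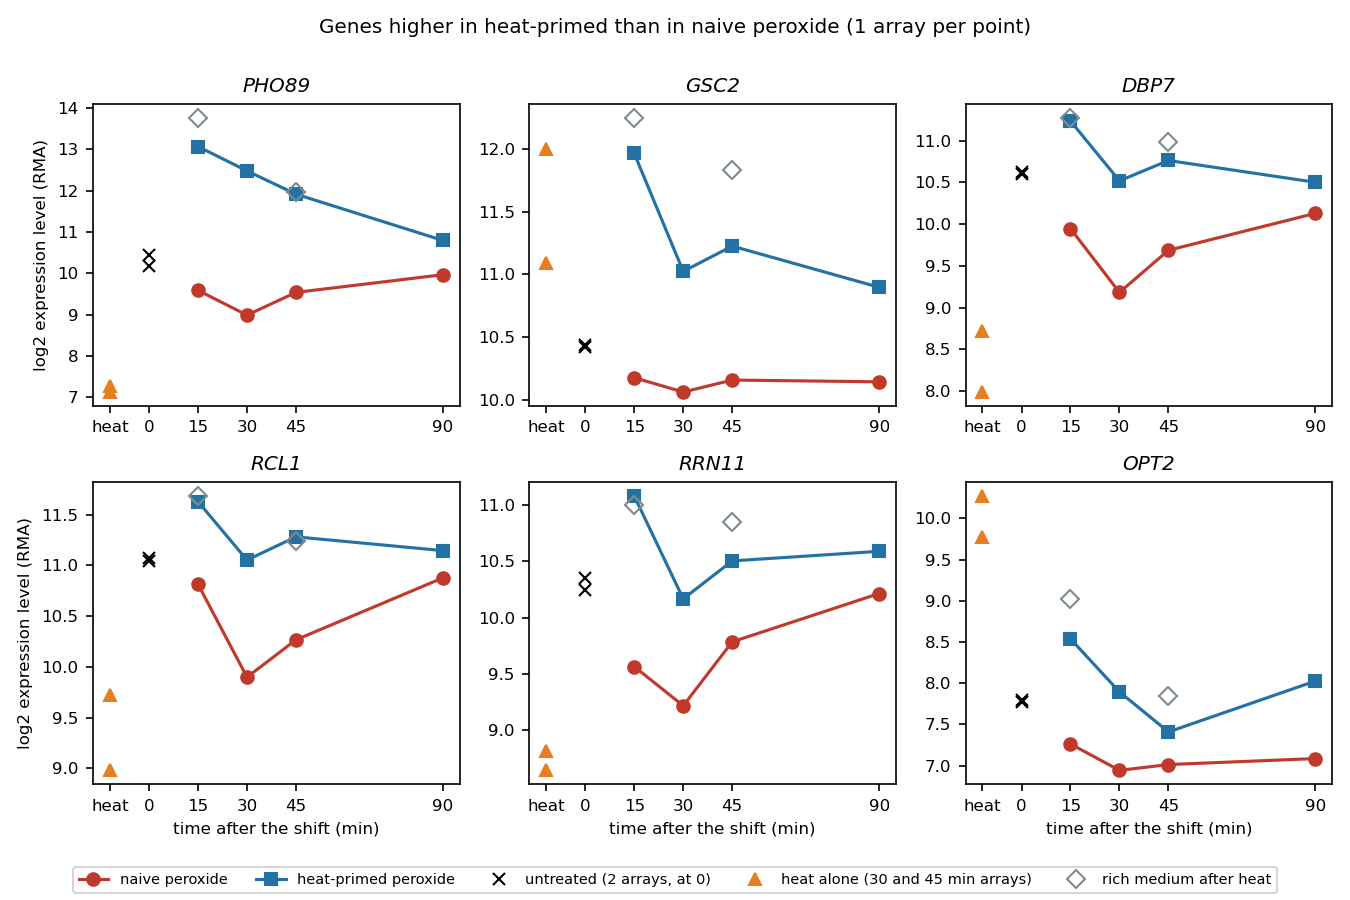
Log2 expression level (vertical) of 6 genes against time in min after the shift (horizontal), 1 array per point, with symbols for naive and heat-primed peroxide, untreated cells, heat alone and rich medium after heat. The primed points of PHO89 run from 13.07 down to 10.80, above naive points between 8.99 and 9.97, while for RRN11 the lowest primed value (10.17) is just under the highest naive value (10.21).

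The plot of the higher genes shows DBP7, RCL1 and RRN11 at their lowest in naive cells at 30 min, when primed cells lay near untreated levels. DBP7 was at 9.95, 9.18, 9.69 and 10.13 in naive cells and at 11.24, 10.52, 10.76 and 10.50 in primed cells, against 10.60 and 10.62 untreated. RCL1, which acts in 18S rRNA maturation, was at 10.81, 9.90, 10.27 and 10.88 in naive cells and at 11.63, 11.05, 11.28 and 11.15 in primed cells (0.81 ± 0.13, adjusted p = 0.0346). RRN11 was at 9.56, 9.22, 9.78 and 10.21 in naive cells and at 11.08, 10.17, 10.50 and 10.59 in primed cells.

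As lists, 14 of 70 measured genes of the small subunit processome and 40S assembly were higher over the 4 times, 0 were lower and 56 did not pass. The 60S assembly list had 7 of 79 higher and the RNA polymerase I and III list 8 of 34, with 0 lower in either, where 1.54% of all genes were higher. As the lists were chosen with earlier results of these data known, these counts are a description. The median difference of the 40S assembly list was 0.38, 0.91, 0.74 and 0.07 at 15, 30, 45 and 90 min, and that of all genes -0.01, -0.02, -0.01 and 0.01. In naive cells the median level of that list against untreated cells was -0.20, -1.16, -0.88 and -0.22, and in primed cells 0.19, -0.22, -0.13 and -0.14. At 30 min 69 of the 70 genes were higher in primed cells, 27 of them by at least 2-fold, on the array with the higher 25S signal. At 45 min, on the next array, 69 were higher and 8 by at least 2-fold. Of all 5449 genes, 47.7% were higher at 30 min and 48.9% at 45 min, and 187 and 66 were at least 2-fold higher. Examples of called genes are FAL1, a processome helicase (0.89 ± 0.18), MRD1, a processome assembly factor (0.75 ± 0.15), UTP18 (0.69 ± 0.10), the 60S methyltransferase SPB1 (0.87 ± 0.16) and the GTPase NOG1 (0.71 ± 0.15). Of the 127 cytosolic ribosomal protein genes, 0 passed in either direction. Their median differences were -0.13, 0.03, 0.08 and 0.04. Without the heat-primed array of 30 min the only call over all genes was lower, so none of these higher calls passed without it.

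The general stress genes differed in the opposite way at the later times. After 15 min, with the fit restricted to 30, 45 and 90 min (9 arrays), 46 genes were higher and 204 lower with limma, or 4.59% of all genes (0.844% higher and 3.74% lower). Of the 43 general stress genes, 16 were lower, 0 higher and 27 did not pass. Their median difference was 0.19 at 15 min and -1.50, -1.13 and -0.64 at 30, 45 and 90 min. In naive cells the list median was 0.65, 2.46, 2.21 and 0.77 above untreated cells, and in primed cells 1.0, 0.79, 0.75 and 0.01. The count over all genes was 11 and 4 without the heat-primed arrays of 30 and 45 min, 15 and 6 without the naive ones, 1018 and 1642 without the heat-primed and naive arrays of 90 min, and 0 with the 2 series alone (1346 at an unadjusted p under 0.05). Quantile normalization gave 87 higher and 183 lower.

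RTC3, a stress-induced gene, had the largest difference at these times. Naive cells had 12.31, 12.30 and 9.87 at 30, 45 and 90 min, and primed cells 8.21, 8.23 and 7.66, close to the untreated 7.62 and 7.74. The difference was -3.46 ± 0.48 (3 arrays per group), or 11.0-fold lower, with an adjusted p of 0.0266. SOL4, a phosphogluconolactonase, had 11.34, 11.48 and 8.47 in naive cells and 8.45, 8.52 and 7.08 in primed cells, a difference of -2.41 ± 0.41 (adjusted p = 0.0386). The naive array of 90 min lay within the primed range for SOL4 but above it for RTC3. RGI1, needed for energy metabolism in respiratory growth (-2.23 ± 0.31), GAD1, glutamate decarboxylase (-2.17 ± 0.40), YNL194C (-2.05 ± 0.39) and TFS1, an inhibitor of carboxypeptidase Y (-1.93 ± 0.39), were lower with them. HSP30 (-2.81 ± 0.33), HSP78 (-1.99 ± 0.17) and BTN2 (-1.90 ± 0.27) were lower at these times too.

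Of the named genes of the later times, SIS1 passed in the most alternatives. Its difference of -1.92 ± 0.08 had an adjusted p of 0.000778 and passed in 16 of 17, with adjusted p from 0.000297 to 0.0701. The exception was the fit with the 2 series alone. The higher genes were DBP7 (0.93 ± 0.17), YDR042C (0.97 ± 0.07), GSC2 (0.93 ± 0.15), BNS1, a gene of mitotic exit (0.82 ± 0.08), RCL1 (0.81 ± 0.17), BMS1, a GTPase of 40S assembly (0.77 ± 0.15), OPT2 (0.76 ± 0.12), SAS2, a histone acetyltransferase (0.73 ± 0.15), SAP185, a partner of the phosphatase Sit4 (0.71 ± 0.14), and YNL058C (0.69 ± 0.11). None of the 46 genes that were higher at these times reached 2-fold, whereas 63 of the lower ones did.

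Chaperone genes were described by list. The lists were chosen with earlier results of these data known, so counts beside the share of all genes are a description and no separate support. In the list of disaggregases, small heat shock proteins and sorting factors, 5 of 10 genes were lower over the 4 times, where 1.8% of all genes were: the sorting factors BTN2 and CUR1, the disaggregase HSP78, and also MBF1 and OPI10, which are none of these 3 kinds. At 30 to 90 min 7 of 10 were lower, against 3.74% of all genes, with HSP104 and the small heat shock protein HSP42 added. HSP104, the cytosolic disaggregase, had 11.41, 12.39, 12.20 and 11.42 in naive cells and 11.30, 10.29, 10.39 and 9.83 in primed cells. The difference was -0.12 at 15 min and -2.11, -1.82 and -1.59 afterwards (-1.84 ± 0.11 at 30 to 90 min, adjusted p = 0.00292). The median of the list was -0.66, -1.55, -1.51 and -1.21 at the 4 times. Among the 12 Hsp70 genes with their exchange factors, FES1, a nucleotide exchange factor, was the 1 that passed over the 4 times (-0.58 ± 0.09), and SSE2 joined it later (-1.27 ± 0.22). Of 12 Hsp40 genes, SIS1 and MDJ1 were lower over the 4 times and JJJ3 was higher, and 3 were lower at 30 to 90 min. The constitutive Hsp70 genes SSA1 and SSA2 missed the threshold at 30 to 90 min (-1.36 ± 0.29 and -1.14 ± 0.25, adjusted p = 0.0519 and 0.0542). Among the 12 genes of Hsp90 and its partners, STI1, which links Hsp70 to Hsp90, was lower over the 4 times (-0.92 ± 0.20, adjusted p = 0.0483). At 30 to 90 min 3 of these 12 were lower. Of all genes, 1.8% were lower and 1.54% higher over the 4 times, and 3.74% were lower at 30 to 90 min.

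Several genes that were high in heat began higher in primed cells and ended lower. HSP26, a small heat shock protein, had 10.42, 10.95, 11.79 and 11.33 in naive cells and 14.07, 13.53, 12.87 and 10.11 in primed cells. Its difference went from 3.65 at 15 min to -1.22 at 90 min, and the gene did not pass over the 4 times (1.52 ± 0.68, adjusted p = 0.165). HSP12, a membrane-stabilising stress protein, had 11.27, 13.02, 13.83 and 11.85 in naive cells and 14.50, 14.22, 13.69 and 10.06 in primed cells, so that its sign turned by 45 min. HSP82, the inducible Hsp90, turned earlier: 12.09, 12.82, 13.05 and 11.90 in naive cells and 13.44, 11.84, 11.06 and 9.45 in primed cells. At 90 min the primed array was well under the untreated ones for HSP82 (11.53 and 11.37), and the difference at 30 to 90 min was -1.81 ± 0.25 (adjusted p = 0.0266). For all 3 genes the primed array of 15 min was close to that of rich medium 15 min after heat, at 14.23 for HSP26, 14.53 for HSP12 and 13.73 for HSP82.

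The change of the difference between 15 min and the later times was tested itself, as an interaction. RAD16, a nucleotide excision repair gene, was the 1 gene to pass (0.0184% of all genes), and 900 genes had an unadjusted p under 0.05. RAD16 had 8.40, 9.29, 9.36 and 8.96 in naive cells and 10.01, 9.0, 8.97 and 8.40 in primed cells. The primed series was highest at 15 min, when the naive series was lowest, and the difference at 15 min less that at 30 to 90 min was 2.02 ± 0.16 (adjusted p = 0.0479). It passed in 6 of 17 alternatives, with adjusted p from 0.0217 to 0.551. In simulated data this test recovered 11.4% of genes with a log2 change of 1 and 72.2% with a change of 2, so that most turns of the smaller size would be missed. For the other genes whose sign turned, the turn is a description of single arrays.

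**Figure D3:**
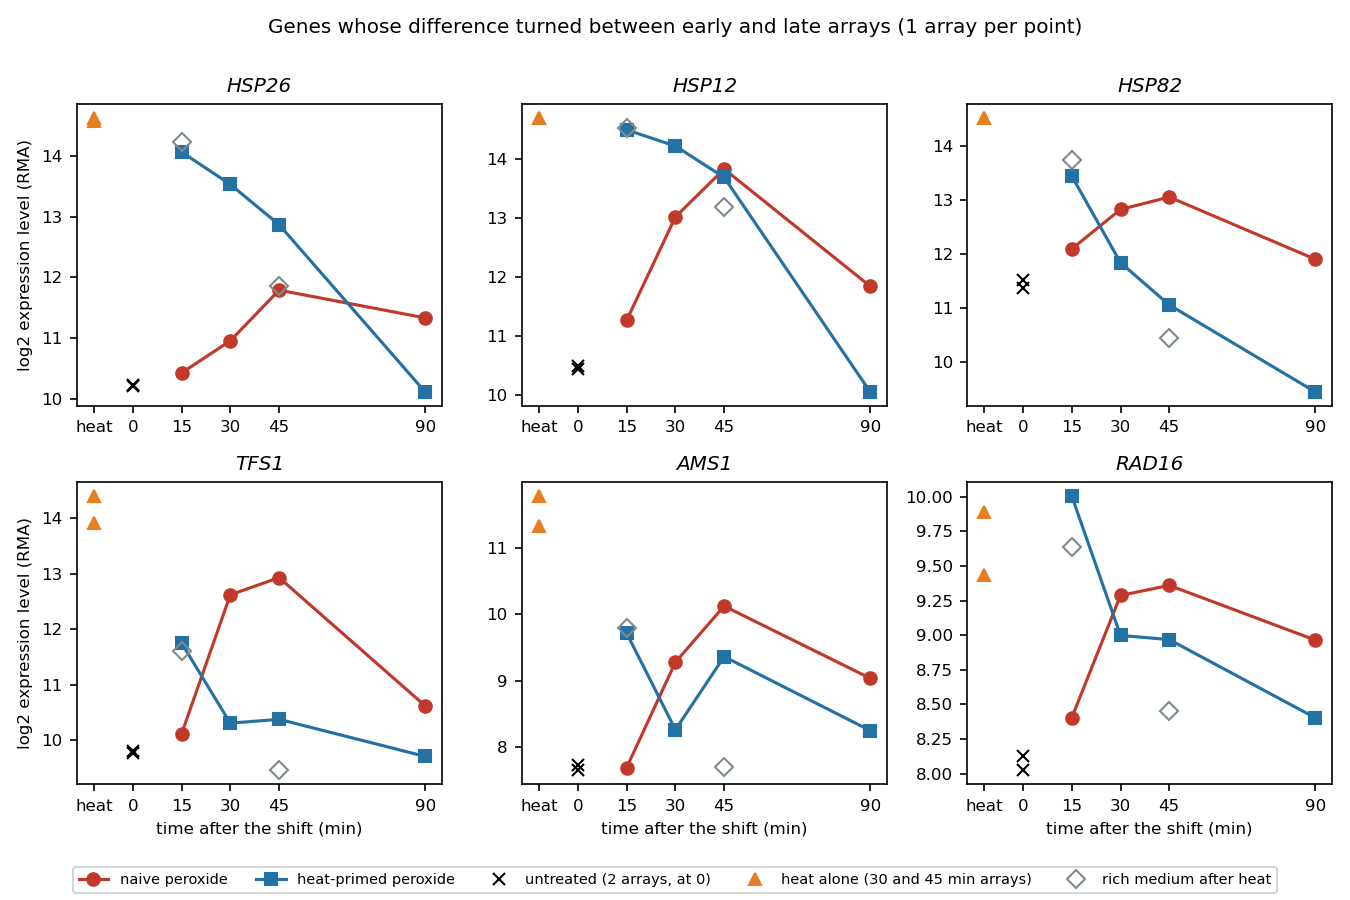
Log2 expression level (vertical) of 6 genes against time in min after the shift (horizontal), 1 array per point, with symbols for naive and heat-primed peroxide, untreated cells, heat alone and rich medium after heat. In each panel the primed series starts above the naive one at 15 min and ends below it at 90 min, as for HSP26 with 14.07 against 10.42 and then 10.11 against 11.33.

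The plot of turning genes also holds TFS1 and AMS1, a vacuolar mannosidase. TFS1 had 10.11, 12.62, 12.93 and 10.62 in naive cells and 11.75, 10.30, 10.37 and 9.70 in primed cells. AMS1 had 7.69, 9.28, 10.13 and 9.04 in naive cells and 9.72, 8.26, 9.36 and 8.25 in primed cells, and it was lower at 30 to 90 min (-0.86 ± 0.14, adjusted p = 0.0377). Both started above the naive array by more than 1.6 and were below it on all 3 later arrays.

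Genes of peroxide removal and thiol redox, the group that peroxide itself drives, had median differences close to 0. Of 36 measured genes, 0 passed over the 4 times, where 3.34% of all genes did, and 1 at 30 to 90 min, where 4.59% did, so neither count stands far from the share of all genes. The 1 gene was GPX1, a glutathione peroxidase (-0.69 ± 0.11, adjusted p = 0.0381). The median difference was -0.05, -0.03, -0.01 and -0.16. Against untreated cells the list median was 0.55, 0.80, 0.72 and 0.32 in naive cells and 0.62, 0.82, 0.63 and 0.11 in primed cells. In heat alone it was also above untreated cells, at 0.62 and 0.47 after 30 and 45 min. SRX1, sulfiredoxin, had 13.49, 13.34, 11.36 and 7.52 in naive cells and 13.59, 13.40, 11.66 and 7.39 in primed cells, up from 6.78 and 6.66 in untreated cells. Its difference was 0.08 ± 0.13 (adjusted p = 0.717), and both series went down together after 30 min. TRR1, thioredoxin reductase, differed by 0.07 ± 0.07, GPX2 by 0.03 ± 0.08 and TRX2 by -0.02 ± 0.07. An exception in size was CTT1, the cytosolic catalase, with 9.40, 11.36, 8.60 and 8.08 in naive cells and 8.86, 8.34, 7.66 and 7.57 in primed cells. It was lower on every primed array, most at 30 min (-3.02), and did not pass (-1.25 ± 0.70, adjusted p = 0.258). GTO3, of the same list, was next in size over the 4 times and did not pass either (-1.17, adjusted p = 0.108). CCP1, the mitochondrial cytochrome c peroxidase, went the other way at 45 min, with 13.19 in naive and 14.46 in primed cells (0.49 ± 0.21 over the 4 times, adjusted p = 0.156).

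Storage carbohydrate and autophagy lists also had lower members and no higher ones. Of 24 trehalose and glycogen genes, 2 were lower over the 4 times (GLC3 and PGM1) and 6 at 30 to 90 min, where 1.8% and 3.74% of all genes were lower. The trehalose phosphate synthase TPS1 had 13.47, 13.32 and 12.14 in naive cells and 11.82, 12.02 and 11.57 in primed cells at these times (-1.17 ± 0.19, adjusted p = 0.0381). The list median was -0.24, -1.35, -0.90 and -0.30. Of 33 autophagy and vacuolar proteolysis genes, 5 were lower over the 4 times (ATG3, ATG7, ATG9, ATG29 and APE1) and 10 at 30 to 90 min, against the same shares of all genes. APE1, a vacuolar aminopeptidase, had 12.47, 13.53, 13.24 and 11.43 in naive cells and 11.57, 12.15, 11.97 and 10.26 in primed cells. The primed array was lower at each time, by 0.90 to 1.38, although the ranges overlap (-1.18 ± 0.19, adjusted p = 0.0346).

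**Figure D4:**
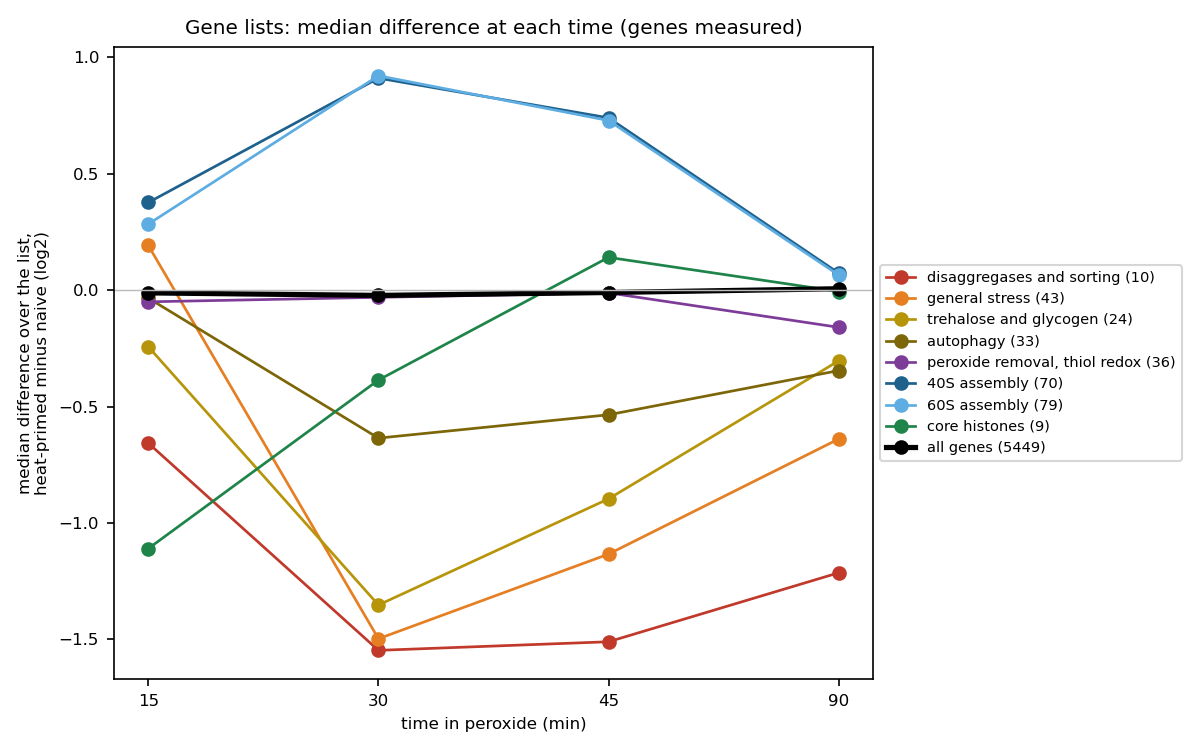
Median difference, heat-primed minus naive, in log2 (vertical) at each time in peroxide in min (horizontal) for 8 gene lists and for all 5449 genes; each point is a median over genes of 1 pair of arrays, with the number of measured genes in the key. At 30 min the 40S assembly list lies at 0.91 and the general stress list at -1.50, while the peroxide removal list and all genes stay near 0.

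The plot of list medians shows the lists furthest apart at 30 min and closer at 90 min. The iron regulon was lower early, with medians of -0.52, -0.40, -0.35 and 0.09, and 2 of 35 genes passed over the 4 times (3.34% of all genes did), ARN2 and the cell wall mannoprotein gene FIT3 (-0.85 ± 0.11, adjusted p = 0.0204). ARN2 had 10.07, 12.12, 12.81 and 10.59 in naive cells and 9.38, 10.09, 10.80 and 9.85 in primed cells. FIT3 had 11.80, 13.06, 13.34 and 12.63 in naive cells and 11.18, 11.93, 12.37 and 11.95 in primed cells. Both were highest at 45 min in either series, at a lower level in primed cells. All 9 core histone genes were lower in primed cells at 15 min, with a median of -1.11, and 8 of 9 were higher at 45 min with a median of 0.14, against 48.7% and 48.9% of all genes higher at those times. Of the histones, 0 passed over the 4 times, near the share of all genes. The median of the histones was also low in rich medium 15 min after heat, at -0.88 against untreated cells. Among 32 genes of G2, M and the M to G1 passage, 28 were higher in primed cells at 90 min, when 51.0% of all genes were, with a median of 0.41. ALK1, a kinase gene, was the 1 that passed, near the share of all genes, over the 4 times (0.86 ± 0.17, adjusted p = 0.0442). Of 45 proteasome genes 0 passed over the 4 times, and 0 of 45 were higher in primed cells at 45 min, when 48.9% of all genes were, at a median of -0.33.

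Across all genes, the difference had its own shape at each time. At least 2-fold higher and lower were 175 and 119 genes at 15 min, 187 and 236 at 30 min, 66 and 146 at 45 min, and 0 and 77 at 90 min. The SD over genes was 0.528, 0.571, 0.457 and 0.301, where the untreated pair gave 0.142. Across 5449 genes, Pearson's r between the differences of 2 times was 0.53 for 15 and 30 min, 0.85 for 30 and 45 min, and 0.03 for 15 and 90 min. These pairs share no array, and genes are not independent replicates. Of the genes at least 2-fold apart at both 30 and 45 min, 174 were on the same side and 0 on opposite sides, and at 15 and 90 min the counts were 15 and 11.

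Some genes stood out at 1 or more times and were chosen after their values were seen. ANS1 had the largest difference at 15 and 30 min, and the largest among higher genes at 45 min. Its levels were 10.61, 9.93, 7.30 and 3.80 in primed cells and 5.86, 4.96, 4.09 and 4.17 in naive cells. It was at 4.25 and 3.82 in heat alone and at 6.36 in rich medium 15 min after heat, all below the primed arrays of 15, 30 and 45 min. The naive array of 45 min was under background (4.62), and so were both series at 90 min, when primed cells were the lower. ANS1 missed the threshold over the 4 times (3.14 ± 0.73, adjusted p = 0.051). At 15 min GPG1 was at 11.31 with priming and 7.17 without it, and PIR3, a cell wall protein, 10.72 and 6.55. FMP48 was lower in primed cells at 15 min, at 6.05 against 9.57, and so was TIS11, an mRNA-binding protein of iron starvation, at 8.18 against 11.59. At 90 min HSP30 and PAU21 had the largest differences among lower genes, and HSP82 and SSA1 came next. HSP82 and SSA1 were at 9.45 and 11.04 in primed cells against 11.90 and 13.37 in naive cells.

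The state from which primed cells entered peroxide was read from arrays outside the comparison. The 611 genes at least 2-fold up after 45 min of heat alone had a median difference of 0.15, -0.50, -0.49 and -0.34 at the 4 times, and the 481 genes at least 2-fold down had 0.17, 0.73, 0.57 and 0.07. So genes up in heat lay mostly lower in primed than in naive peroxide from 30 min on: 25.5% of them were higher at 30 min and 14.9% at 90 min, where 47.7% and 51.0% of all genes were. The difference at 15 min followed the change from untreated cells to rich medium 15 min after heat (r = 0.74 across genes), and later differences did so less (0.28, 0.06 and -0.26). Of the 178 genes at least 2-fold up in that rich medium array, 92.1% were higher in primed peroxide at 15 min, by a median of 1.02. These reference arrays share no array with the comparison, and the points share the same genes and probe sets.

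Whole profiles were set side by side by the SD of the difference between 2 arrays over genes. The primed array of 15 min was nearest to rich medium 15 min after heat (0.438) and second to the naive array of 15 min (0.528). The primed array of 30 min was nearer to the naive array of 15 min (0.424) than to that of 30 min (0.571). The primed array of 45 min was nearest, among naive arrays, to that of 90 min (0.402), and the primed array of 90 min lay at 0.301 from the naive one and at 0.304 and 0.277 from the untreated arrays.

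**Figure D5:**
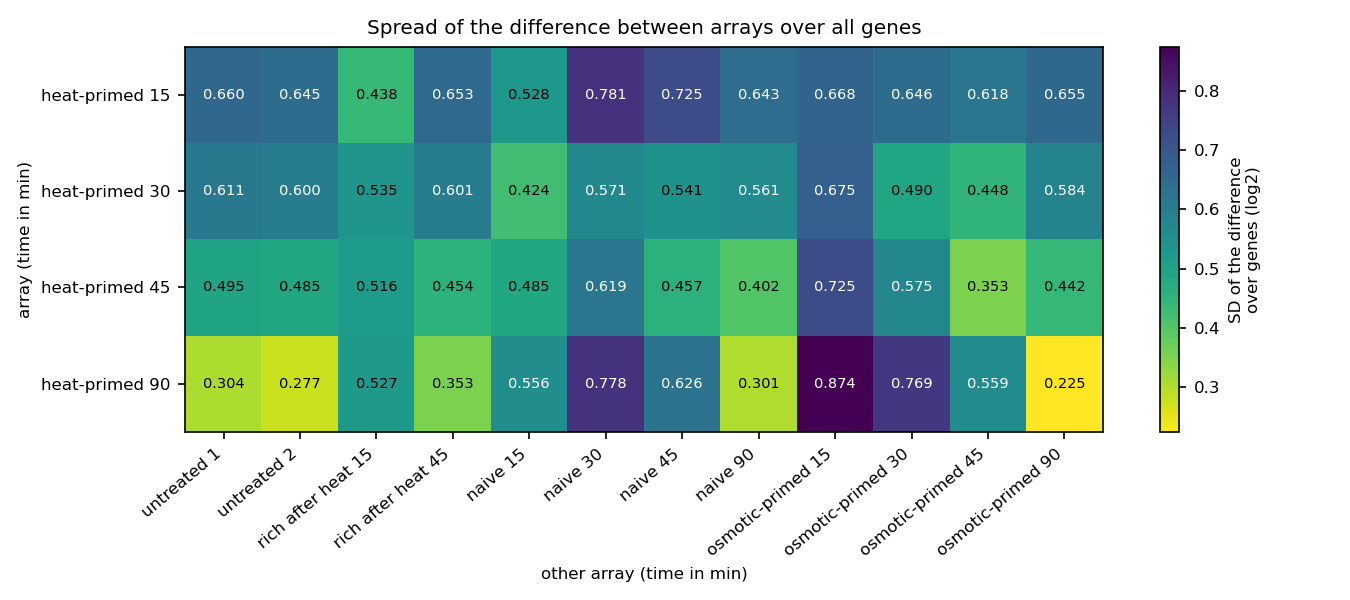
SD over 5449 genes of the log2 difference between each heat-primed array (rows, time in min) and 12 other arrays (columns), with the value printed in each cell and lighter colours for closer pairs. The closest pair is heat-primed and osmotic-primed at 90 min (0.225), and the primed array of 30 min is closer to naive 15 min (0.424) than to naive 30 min (0.571).

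The map of distances shows that from 45 min on the nearest profile was that of osmotic-primed cells at the same time, at 0.353 and 0.225. Heat priming was therefore also set against osmotic priming in the same peroxide. By limma, heat-primed cells had 2 genes higher (0.0367% of all genes) and 5 lower (0.0918%) over the 4 times, 0.128% together, and 1112 had an unadjusted p under 0.05. Higher were PHO5, a secreted acid phosphatase (1.83 ± 0.24), and OPT2 (1.16 ± 0.14), and lower were STL1, a glycerol symporter (-4.92 ± 0.62), SIS1 (-1.25 ± 0.17), MBF1 (-1.07 ± 0.13), YIR042C (-1.06 ± 0.14) and MDJ1, the mitochondrial Hsp40 (-0.81 ± 0.10), each with an adjusted p of 0.0378. The 2 comparisons share fitted arrays. Medians of osmotic-primed minus naive cells at 15, 30, 45 and 90 min were -0.06, 0.53, 0.39 and -0.04 for 40S assembly. They were -0.07, 0.52, 0.40 and -0.06 for 60S assembly, and 1.09, -0.52, -0.64 and 0.09 for trehalose and glycogen. Autophagy genes had 0.40, -0.36, -0.32 and -0.19, and general stress genes 2.80, -0.09, -0.51 and 0.03. Of these lists, 0 genes passed between the primed series. That is near the share of all genes (0.128%) and does not show the primings to be alike. Over the 4 times, the median of heat-primed minus osmotic-primed cells was 0.31 for 40S assembly and 0.33 for 60S assembly. It was -0.63 for trehalose and glycogen, -0.28 for autophagy and -1.23 for general stress genes. The disaggregase and sorting list had osmotic-primed minus naive medians of 0.74, -0.43, -0.61 and -0.59 at the 4 times. Of its 10 genes, MBF1 was the 1 that passed between the primed series. STL1 was at 8.28 or more on each array after KCl and between 4.68 and 5.53 in both other series. SIS1 had 12.35, 12.10, 12.22 and 11.73 in osmotic-primed cells, above all 4 heat-primed arrays, whereas HSP30 had 8.90, 10.57, 8.89 and 8.77 and did not pass between the primed series (-0.98 ± 0.35, adjusted p = 0.212). Leaving out 1 array gave 0 to 45 calls, and 0 without the heat-primed array of 15, 30 or 45 min.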

How the data were processed

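Total RNA of yeast was measured on 22 Affymetrix arrays. The authors deposited log2 expression values made with RMA, per the submitters' processing notes; its version is not given in the sources used here. The authors also deposited log2 fold changes against time 0, used as an alternative only. Of 10928 probe sets, 5498 named 1 S. cerevisiae gene, and the brightest was kept per gene, which left 5449 genes, unscaled and unfiltered. Background is the 95th percentile of probe sets of genes absent from the S. cerevisiae table. The number of arrays limits precision.

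Fits used limma 3.58.1 in R 4.3.3 (group and time terms, eBayes, Benjamini-Hochberg adjustment over 5449 genes, threshold 0.05) on the 12 arrays of the 3 peroxide series, or 9 arrays at 30 to 90 min; errors are standard errors. Differences at 1 time come from 1 array per group and have no test. The fits were tested on 5 simulated sets with 200 changed genes: changes of 1 and 2 (log2) were recovered for 87.2% and 98.6% over 4 times, and for 79.8% and 98.2% at 30 to 90 min. False calls averaged 10.2 over 4 times, 8 at 30 to 90 min and 3.8 for the interaction. The simulated noise was independent between genes. Departures shared by many genes on 1 array were not simulated, so recovery in these data may be lower.

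Named genes are those past the threshold with 1 sign at all times, the 12 largest each way over 4 times, 10 each way at 30 to 90 min and 5 each way between primed series, plus list members with the largest differences; other genes were chosen after their values were seen. The comparison and its 38 gene lists were chosen with earlier results of these data known. Alternatives were the normalization, dim genes, variance model, minimum fold, probe sets, source table, arrays, times and terms.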

Additional observations from a re-analysis of the deposited data

Results flagged for a closer look

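In 176 groups of 4 arrays or values, 6 had 1 far from the other 3; chance gives about 1 in 20. In heat-primed peroxide, GGA1 was at 7.88 at 15 min, with the others at 8.95 to 9.15. HSP78 was at 8.21 at 90 min, with the others at 8.95 to 9.08. Against untreated cells, the median of the disaggregase and sorting list was 0.43 at 15 min, and it was -0.23 to -0.17 on the other arrays. That of the cell wall integrity list was -0.14 at 30 min and -0.0045 to 0.0057 elsewhere. That of the 60S assembly list was 0.14 at 15 min and -0.14 to -0.12 elsewhere. The brightest 25S ribosomal RNA probe set was at 10.81 at 30 min and at 8.79 to 9.01 on the other arrays, and its part in the results at 30 min was not tested.

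Some differences varied between times or between primings by a test of that difference. For RAD16, the difference at 15 min was 2.02 above that at 30 to 90 min (limma interaction). The effect of heat priming less that of osmotic priming was -4.92 for STL1, -1.25 for SIS1, -1.07 for MBF1, -1.06 for YIR042C and -0.81 for MDJ1. It was 1.16 for OPT2 and 1.83 for PHO5.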

How the results depend on the processing

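Over the 4 times, the main count of 182 genes became 434 with quantile normalization, 333 with the authors' fold-change table, 344 without the dimmest 25% of genes, 312 with trend and robust settings, 29 at 2-fold or more and 3 with the 2 series alone. Without the times of 30, 45 or 90 min in all groups it was 0, 1 and 749 (708, 942 and 1832 at an unadjusted p under 0.05). Leaving out 1 array gave 1 to 829 calls: 9 without the heat-primed array of 15 min, 393 without the naive one, and 747, 11, 9 and 10 without the osmotic-primed arrays of 15, 30, 45 and 90 min. At 30 to 90 min, 250 became 63 at 2-fold or more, 383 without dim genes, 413 with trend and robust settings and 0 with the 2 series alone, and 4 to 1642 with 1 array left out (104, 12 and 38 without the osmotic-primed ones). The main split of 46.2% higher over 4 times became 53.8% to 59.8% under those normalization, table, dim-gene and variance settings, and 18.4% at 30 to 90 min became 27.8% to 32.2%. With arrays shifted to one median the split moved the other way, to 41.6% over 4 times and 16.8% at 30 to 90 min. The cause of these moves was not tested.

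For the interaction, 1 call became 0 with quantile normalization, with arrays shifted to one median, without dim genes, with 15 and 30 min as early and with the 2 series alone, 5 with trend and robust settings, 44 as a trend with log2 time, and 0 to 14 with 1 array left out (0 without the heat-primed array of 30, 45 or 90 min, and 3, 0 and 14 without the naive ones). Between primings, 7 became 4 without dim genes, 1, 0, 0 and 56 without the times of 15, 30, 45 and 90 min, and 0 to 45 with 1 array left out (24 without the naive array of 15 min). The labels give no shared replicate numbers, so the pairing is the matched time: with no time term in place of that block, the counts were 6 over the 4 times, 3 at 30 to 90 min and 4 between primings. RAD16 turned to -0.41 over the times without 15 min. The genes named for passing the threshold kept their sign under all their alternatives in their own comparison. List members that did not pass did not always do so: over the 4 times AMS1 had the main sign in 17 of 24 alternatives and HSP12 in 22 of 24.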
